A study of Mus musculus with 7 samples.

Results

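Chromatin accessibility was examined at 8 genes of drug efflux transporters in mouse mammary tumour cells: Abcb1a, Abcb1b, Abcc1, Abcc2, Abcc3, Abcc4, Abcc5 and Abcg2. In the assay used, ATAC-seq, a transposase inserts adapters into open DNA, so that reads pile up at accessible sites. All cells came from tumours of MMTV-PyMT mice on a C57BL/6 background, in which a mammary promoter drives the polyoma middle T oncogene, and the mice also carried a transgene that reports expression of Dll1, a Notch ligand, by mCherry from a large genomic clone. By the labels, cells bearing CD45, CD31 or Ter119 were sorted out, and the rest were divided by mCherry into Dll1+ and Dll1- cells, with 3 Dll1+ samples and 4 Dll1- samples from 4 tumours, of which 3 gave both. Ages and treatments were not given for these samples, and the reporter reads the transgene, not the endogenous Dll1 protein. The deposited values were 1 pooled list of accessible intervals per group, so there is no value per sample, no replicate error and no test between Dll1+ and Dll1- cells.

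Regions were built by merging intervals of both lists that overlapped or touched, and a region was given to one of the 8 genes when a transcription start site (TSS) of that gene was the nearest protein-coding TSS to its midpoint. Of 119215 regions in all, 68 belonged to the 8 genes. Regions are numbered within each gene in order of their coordinate, on the GRCm38 (mm10) build. The nearest TSS is a rule of position and does not show which gene a region acts on.

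ATP-binding cassette (ABC) transporters are membrane proteins that use ATP to move substrates across a membrane, and several of them pump drugs out of cells. Abcb1a and Abcb1b encode the mouse forms of P-glycoprotein, the classical multidrug pump, which carries doxorubicin and many other hydrophobic drugs. Abcc1 to Abcc5 encode multidrug resistance-associated proteins, which export organic anions and conjugates, and Abcg2 encodes the breast cancer resistance protein, known in the mammary gland for secreting vitamins and drugs into milk. The study asked about the response of Dll1+ tumour cells to doxorubicin. Accessibility is not expression, and no RNA was analysed here.

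Of the 68 regions, 43 (63.2%) were in both lists, 5 (7.35%) in the Dll1+ list only and 20 (29.4%) in the Dll1- list only. Over all 119215 regions the shares were 66.4% in both lists, 9.01% in the Dll1+ list only and 24.6% in the Dll1- list only. In number, 29318 of all regions were in the Dll1- list only and 10744 in the Dll1+ list only. The share of all genes in this order was not computed. Regions of the Dll1- list only likewise outnumbered those of the Dll1+ list only at each of the 8 genes, in lists of unequal depth. With equal numbers of rows in both lists this held at 6 of the 8, with none of either kind at Abcc5 and 3 of each at Abcg2. It held at 3 of the 8 with intervals at or above the median fold of their list, where Abcc3 turned to 1 Dll1+ only and 0 Dll1- only regions, and at 3 of the 8 where only list-only regions had to reach that fold. The genome-wide background, in reads expected at a site, was 3.74 for Dll1+ against 7.20 for Dll1-, 1.93 times as much. Depth and cell group cannot be told apart in regions that are absent from the Dll1+ list.

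**Figure D1:**
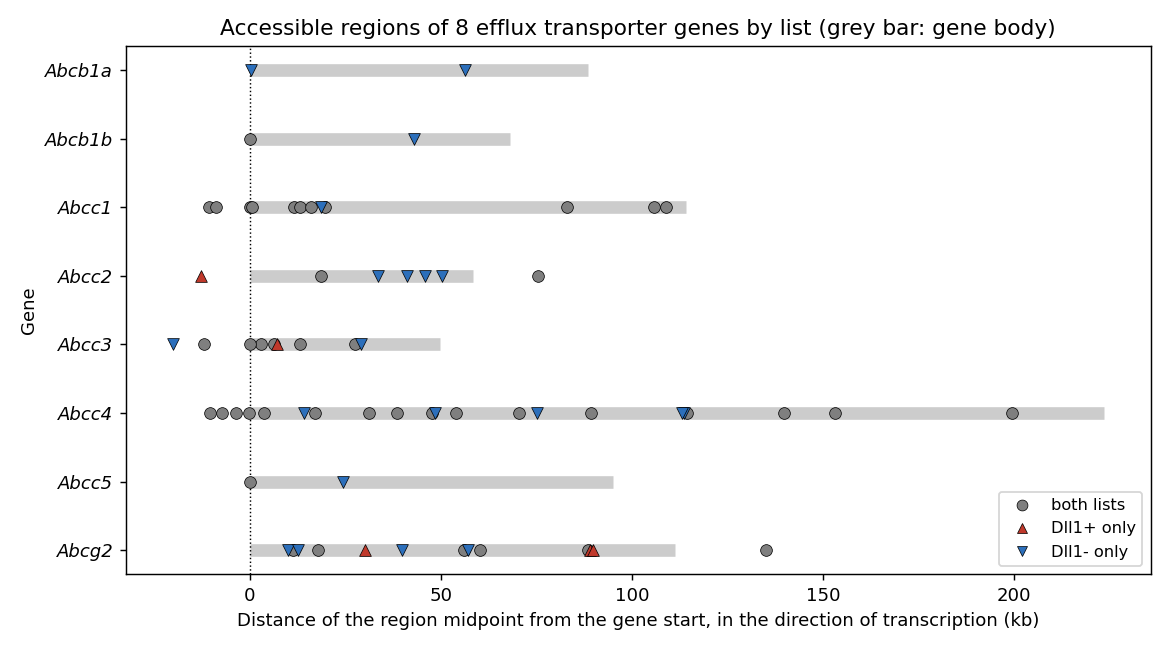
Positions of the 68 regions along the 8 genes. The x axis is the distance of a region midpoint from the gene start in kb, in the direction of transcription, each row is a gene, the grey bar is its body, and symbols mark regions of both lists (circles), of the Dll1+ list only (upward triangles) and of the Dll1- list only (downward triangles). The 5 Dll1+ only regions lie at Abcc2, Abcc3 and Abcg2.

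The sequences below carry the results at these genes. Those named promoter are the 250 bases before a RefSeq gene start, read on the gene's strand, with GC boxes and CCAAT boxes in capitals. Those named summit are 101 bases around the highest point of a region on the plus strand, with capitals for an NRF2 antioxidant response element, an AP-1 site or an NF-kB site. They are the promoters of Abcb1b and of the main start of Abcg2, which were open in both lists, the Abcb1a start region of the Dll1- list only, the regions of Abcc4 and Abcc1 with the widest rank gap, and 3 regions of Abcg2 that differed between the lists.
Abcb1b promoter, chr5:8797897-8798146, plus strand: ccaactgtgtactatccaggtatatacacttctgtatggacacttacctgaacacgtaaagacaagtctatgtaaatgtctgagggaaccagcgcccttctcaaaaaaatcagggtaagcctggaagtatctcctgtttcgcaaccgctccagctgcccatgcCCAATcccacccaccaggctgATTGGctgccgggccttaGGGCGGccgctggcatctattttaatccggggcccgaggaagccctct
Abcg2 promoter, chr6:58640296-58640545, plus strand: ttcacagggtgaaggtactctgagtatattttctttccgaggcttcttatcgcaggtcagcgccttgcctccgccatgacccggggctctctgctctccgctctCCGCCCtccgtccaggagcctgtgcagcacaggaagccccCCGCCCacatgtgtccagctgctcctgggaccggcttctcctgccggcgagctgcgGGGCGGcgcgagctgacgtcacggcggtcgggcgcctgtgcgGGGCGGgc
Abcb1a region 1 summit, chr5:8660476-8660576: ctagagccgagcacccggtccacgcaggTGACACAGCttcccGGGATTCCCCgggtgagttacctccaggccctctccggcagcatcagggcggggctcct
Abcc4 region 12 summit, chr14:118658487-118658587: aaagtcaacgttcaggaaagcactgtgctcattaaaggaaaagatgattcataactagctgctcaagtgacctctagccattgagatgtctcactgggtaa
Abcc1 region 12 summit, chr16:14470323-14470423: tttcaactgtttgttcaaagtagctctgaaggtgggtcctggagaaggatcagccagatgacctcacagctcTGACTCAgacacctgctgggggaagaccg
Abcg2 region 5 summit, chr6:58614553-58614653: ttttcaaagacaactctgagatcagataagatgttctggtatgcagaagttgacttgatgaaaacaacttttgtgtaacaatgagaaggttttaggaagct
Abcg2 region 6 summit, chr6:58624276-58624376: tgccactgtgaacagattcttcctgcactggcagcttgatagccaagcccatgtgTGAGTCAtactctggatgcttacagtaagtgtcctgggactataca
Abcg2 region 10 summit, chr6:58672988-58673088: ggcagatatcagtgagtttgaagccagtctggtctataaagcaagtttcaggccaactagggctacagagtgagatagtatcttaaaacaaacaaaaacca

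Promoters, taken as 1000 bp before to 100 bp after any annotated TSS of a gene, were open in both lists at 6 of the 8 genes: Abcb1b, Abcc1, Abcc3, Abcc4, Abcc5 and Abcg2. Among 21924 protein-coding genes 60% had a promoter region in both lists. The Abcb1a promoter had a region in the Dll1- list only (3.01% of protein-coding genes), and none of the 8 had one in the Dll1+ list only (0.525%). Abcc2 had a promoter region in neither list (36.5%).

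Each region is described by its rank, its level and a ratio. The strength percentile is the rank of its highest fold enrichment, the reads at a summit over the local background, among all intervals of the same list. Reads and backgrounds were recovered from the deposited fold and p-value under an assumed form of both. The level is the reads at its highest summit divided by the genome-wide background of the list. The relative log2 ratio is the log2 of the Dll1+ level over the Dll1- level minus 0.24, the median over all shared regions, and its 95% interval covers counting error only.

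The P-glycoprotein genes had few accessible regions. Abcb1a (chr5:8660077-8748575, plus strand) had 2, and both were in the Dll1- list only. Region 1, at chr5:8660118-8660653 just after its GENCODE start and with its midpoint in an intron, held 25 reads on a background of 7.20, at percentile 21.5 of the Dll1- list. Scaled to the Dll1+ background these would be 13.0 reads, which by −log10 p would stand at percentile 5.24 of the Dll1+ list, against percentile 13.9 by −log10 p in the Dll1- list. Its summit window held an NRF2 element, TGACACAGC, an NF-kB site and a GC box. Region 2, at 56.2 kb in an intron, held 34 reads, at percentile 40.5. RefSeq places the Abcb1a start further upstream, and neither list had a region over that promoter, at chr5:8566841-8567090.

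Abcb1b (chr5:8798147-8866315, plus strand) was open at its promoter in both cell groups. Region 1, at chr5:8797829-8798780, had 34 reads in Dll1+ and 50 in Dll1-, at percentiles 64.7 and 61.9. The levels were 9.10 and 6.95, and the relative log2 ratio of 0.15 had an interval from -0.48 to 0.78, so no difference was detectable at this depth. The Abcb1b promoter holds 1 GC box and 2 CCAAT boxes in the 250 bases printed. The only other region, region 2 at 43.0 kb in an intron, was in the Dll1- list only with 34 reads, at percentile 40.5.

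Abcc1 (chr16:14361558-14475737, plus strand) encodes MRP1, which exports glutathione conjugates and anthracyclines, and it had 12 regions, 11 of them in both lists. Its promoter, region 3 at chr16:14361313-14362063, was among the strongest sites of the 8 genes, with 178 Dll1+ reads and 254 Dll1- reads at percentiles 94.8 and 94.4. Levels at the promoter were 47.6 and 35.3, with a relative log2 ratio of 0.19 (-0.08 to 0.47).

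Inside the Abcc1 body the shared regions went both ways. Regions 6 and 7, introns 13.1 kb and 16.0 kb from the start, had levels of 26.8 and 50.8 in the Dll1+ list against 11.8 and 23.3 in the Dll1- list. Their relative log2 ratios were 0.94 (0.52 to 1.36) and 0.88 (0.58 to 1.18), higher in Dll1+ beyond counting error. Their rank gaps were smaller, at 14.8 and 11.5 points, on local backgrounds of up to 18.7 reads in the Dll1+ list, well above the genome-wide value.

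Further along the gene the shared regions also differed in direction. Region 10, an intron 83.0 kb from the start, had levels of 12.3 in Dll1+ and 7.22 in Dll1-. Its relative log2 ratio was 0.53 (-0.04 to 1.10), an interval that covers 0. Region 12, at chr16:14470162-14470545 in an intron, had 23 Dll1+ reads and 99 Dll1- reads, percentiles 42.4 and 81.7 and a relative log2 ratio of -1.40 (-2.06 to -0.75), so its relative level was 2.64 times as high in Dll1- cells. Its summit window, printed above, holds the AP-1 site TGACTCA. Region 11, also an intron, was weak in both lists with 13 and 36 reads, at percentiles 12.7 and 34.1. Upstream of the gene, region 1 (chr16:14350621-14351108, intergenic) stood at percentile 41.4 in Dll1+ and 68.7 in Dll1-. The relative log2 ratio was -0.77 (-1.68 to 0.15) at region 11, an interval that covers 0, and -0.77 (-1.47 to -0.06) at region 1. Region 8, in an intron 18.6 kb from the start, was in the Dll1- list only, with 86 reads on a local background of 15.2 and an AP-1 site.

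Abcc2 (chr19:43782192-43840740, plus strand) encodes MRP2, the canalicular pump of liver, kidney and gut. No region lay at its start, and 4 of its 7 regions were in the Dll1- list only. These regions, 3 to 6, lay 33.5 to 50.4 kb into the gene in introns and a coding exon. They held 44, 43, 30 and 64 reads, with region 6 (chr19:43832448-43832731) the strongest at percentile 73.1. The 1 Dll1+ only region, region 1 at chr19:43769196-43769866, lay 12.7 kb before the start with 25 reads, at percentile 48.9.

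Of the 2 shared Abcc2 regions, region 2 was in a coding exon with 30 and 43 reads, at percentiles 59.0 and 54.3. Region 7 (chr19:43857277-43857729) lies 75.3 kb from the Abcc2 start, inside the neighbouring gene Dnmbp and at the promoter of the small nuclear RNA gene Gm24400. It ranked highest of the 68 regions in the Dll1- list, at percentile 97.1, with 184 reads against 56 Dll1+ reads at percentile 85.7. Its relative log2 ratio was -1.01 (-1.44 to -0.58) although its rank gap of 11.4 points was under the 20 points used to call a shift.

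Abcc3 (chr11:94343295-94392997, minus strand) encodes MRP3, an exporter of glucuronides and bile salts. It had 6 shared regions, 1 Dll1+ only region and 2 Dll1- only regions. The promoter, region 7 at chr11:94392839-94393191, held 31 and 44 reads at percentiles 56.5 and 55.5, with a relative log2 ratio of 0.20 (-0.46 to 0.86). The strongest Abcc3 site was region 2, an intron 27.5 kb into the gene, with 114 Dll1+ reads and 220 Dll1- reads at percentiles 93.2 and 93.8. The promoter and this intronic site ranked alike in both lists, and both intervals of the ratio cover 0.

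Closer to the Abcc3 start, region 5 (chr11:94386280-94387118) had levels of 13.9 in Dll1+ and 5.97 in Dll1-, with a relative log2 ratio of 0.98 (0.40 to 1.56). Its rank was higher in the Dll1+ list by 19.7 points, just under the 20-point line. Next to it, region 4 was in the Dll1+ list only, but with 14 reads at percentile 1.6 it was one of the weakest intervals of that list. The Dll1- only regions were region 1 in an intron, with 50 reads on a local background of 13.9, and region 9, with 29 reads in a coding exon of the neighbouring calcium channel gene Cacna1g.

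Abcc4 (chr14:118482692-118706219, minus strand) encodes MRP4, which exports cyclic nucleotides and nucleotide analogues. It is the longest of the 8 genes and had the most regions, 21, of which 16 were in both lists, 5 in the Dll1- list only and none in the Dll1+ list only. Of the 16 shared regions 13 had a relative log2 ratio below 0, with a median of -0.38, against a median of 0 over all shared regions by construction. In 4 of the 16 the whole interval lay below 0 (16.4% of all shared regions), and in none above 0 (17.5%).

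The Abcc4 promoter, region 18 at chr14:118706021-118706653, had 35 Dll1+ reads and 76 Dll1- reads at percentiles 37.6 and 50.7. Its relative log2 ratio of -0.41 had an interval from -0.99 to 0.16. The intronic site that ranked highest in the Dll1+ list, region 13 at chr14:118667427-118668145, ranked at percentile 96.5 in Dll1+ and 92.4 in Dll1-. It had 132 and 172 reads and was 1 of the 3 shared Abcc4 sites with a positive ratio, 0.32 (-0.0045 to 0.65).

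Region 12 (chr14:118658126-118658761), an intron 47.8 kb from the start, had the widest gap of all 43 shared regions. It held 21 Dll1+ reads and 99 Dll1- reads, at percentiles 38.6 and 81.8, with a relative log2 ratio of -1.53 (-2.21 to -0.85). Of all shared regions in the series 0.610% had a lower ratio. Beside it lay region 11, in the Dll1- list only, with 34 reads. Regions 2 and 9, also introns, stood at percentiles 32.5 and 38.6 in Dll1+ and 58.8 and 67.7 in Dll1-, with relative log2 ratios of -0.60 (-1.37 to 0.17) and -0.79 (-1.50 to -0.07).

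Other Abcc4 sites differed in level with a rank gap under 20 points. Region 3 (chr14:118566215-118566722, intron) had 56 and 176 reads and a relative log2 ratio of -0.95 (-1.38 to -0.51), with a rank gap of 9.72 points. Region 21 (chr14:118716209-118717112), intergenic 10.4 kb upstream of the start, had 98 and 229 reads, a ratio of -0.52 (-0.86 to -0.18), a rank gap of 15.3 points and an AP-1 site. The other Dll1- only regions were weak to middling: regions 5 and 6, at the promoter of the microRNA gene Mir6391 inside Abcc4, region 8 in a coding exon, and region 16 in an intron held 27, 32, 38 and 38 reads.

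Abcc5 (chr16:20331303-20426394, minus strand) encodes MRP5, another exporter of cyclic nucleotides. It had only 2 regions although its body spans 95.1 kb. The promoter, region 2 at chr16:20425643-20426751, was open in both lists with 110 Dll1+ reads and 144 Dll1- reads at percentiles 88.8 and 85.7. The relative log2 ratio was 0.32 (-0.04 to 0.67), an interval that covers 0. Region 1, an intron 24.5 kb from the start, was in the Dll1- list only with 19 reads, the fewest of any Dll1- only region here.

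Abcg2 (chr6:58584523-58695676, plus strand) had 13 regions: 6 in both lists, 3 in the Dll1+ list only and 4 in the Dll1- list only. Its internal start, 56.0 kb into the gene record, carried region 7 (chr6:58640203-58640903), the site with the most reads of the 68: 225 in Dll1+ and 351 in Dll1-. Its levels of 60.2 and 48.8 gave a relative log2 ratio of 0.06 (-0.18 to 0.30), and its percentiles of 94.2 and 94.0 were near equal. This promoter, printed above, has 67.6% G and C and holds 4 GC boxes.

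An earlier Abcg2 start had a weak shared site, region 2 at chr6:58595430-58596038, with 20 and 33 reads at percentiles 35.6 and 38.7. Neither list had a region over the RefSeq promoters at chr6:58584283-58584532 and chr6:58596422-58596671.

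Of the distal Abcg2 sites, region 10 (chr6:58672866-58673188), an intron 88.5 kb from the gene start, was the only one of the 43 shared regions ranked higher in Dll1+ by 20 points or more. It had 46 Dll1+ reads and 38 Dll1- reads, at percentiles 67.4 and 47.3, with a relative log2 ratio of 0.98 (0.36 to 1.60). Its rank difference fell under 20 points, to 18.8, when ranked among merged regions. Regions 11 and 12, both within a short distance downstream of it, were in the Dll1+ list only with 20 and 18 reads, at percentiles 21.1 and 14.7. Region 13 (chr6:58719082-58720318), intergenic beyond the gene end, had levels of 21.1 and 12.6 and a ratio of 0.50 (0.07 to 0.94). These 4 regions, the furthest along Abcg2, were higher in, or called only in, the Dll1+ list, a grouping made after their values were seen. The rank gap of region 13 was only 9.38 points. Local backgrounds in the Dll1+ list were 5.07, 5.01 and 5.13 at regions 10, 11 and 12, above the genome-wide 3.74. Whether these sites lie in repeats was not checked.

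Between these distal sites and the earlier start the order was mixed. Region 5 (chr6:58614457-58614939, intron) was the strongest Dll1+ only region of the 8 genes, with 38 reads at percentile 70.4. Region 6 (chr6:58624163-58624469, intron) ranked highest by fold of the Dll1- only regions, though not by reads, with 66 reads at percentile 74.3 and an AP-1 site, TGAGTCA. Region 8, next to the main promoter, was in the Dll1- list only with 101 reads on a local background of 22.1, at percentile 43.0. The remaining Dll1- only regions, 1 and 3, held 41 and 22 reads.

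**Figure D2:**
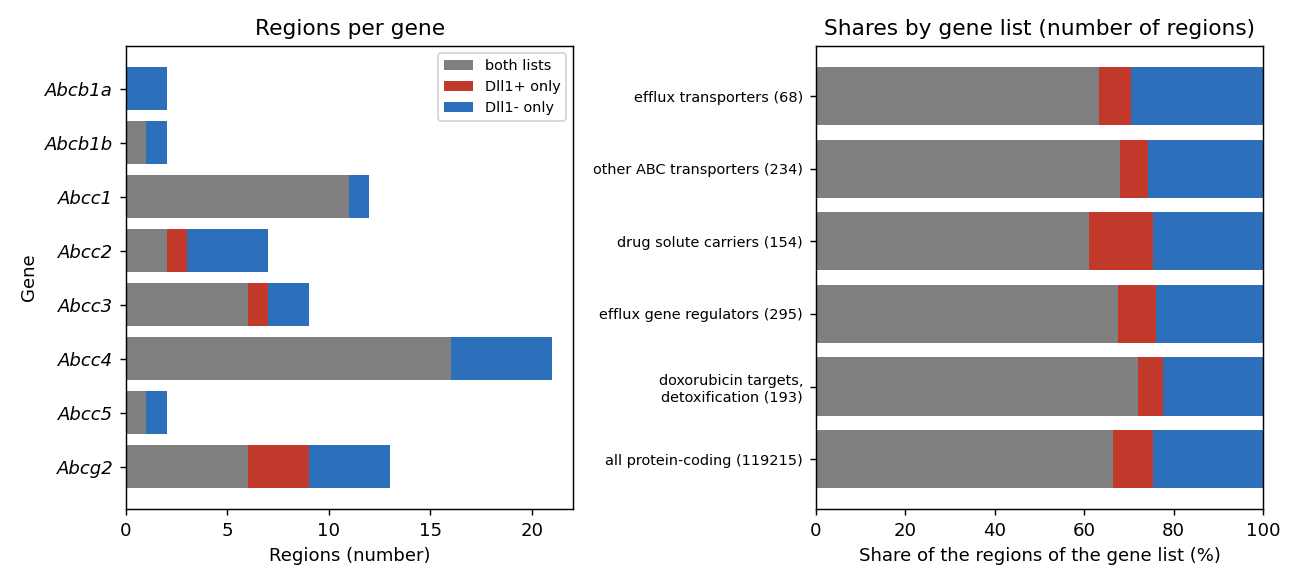
Regions of the 8 genes by list. The left panel counts the regions of each gene in both lists, in the Dll1+ list only and in the Dll1- list only, and the right panel gives the shares in percent for the 8 genes, for other gene lists and for all protein-coding genes, with the number of regions in brackets. The 8 genes had 29.4% of regions in the Dll1- list only against 24.6% over all genes.

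In strength rank, 27 of the 43 shared regions stood lower in the Dll1+ list than in the Dll1- list and 16 stood higher, where 59% and 41% of all shared regions did so. The median difference in percentile, Dll1+ minus Dll1-, was -3.89 against -1.67 over all 79153 shared regions. A difference of 20 points or more was reached by 1 region in favour of Dll1+ (Abcg2 region 10), where 6.39% of all shared regions did so. It was reached by 6 in favour of Dll1- (Abcc1 regions 1, 11 and 12 and Abcc4 regions 2, 9 and 12), where 11.1% of all shared regions did so. Ranked among merged regions, Abcg2 region 10 and Abcc1 region 11 no longer reached 20 points (18.8 and -19.6), and the counts were 0 in favour of Dll1+ and 7 in favour of Dll1-. Both counts are small, and the shared promoter regions were not among them.

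**Figure D3:**
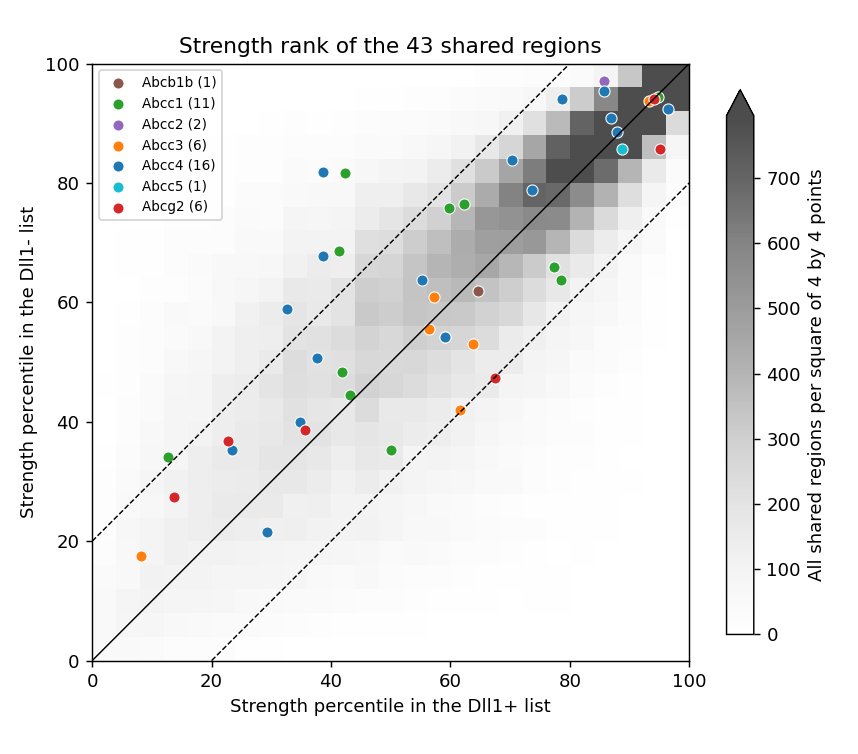
Strength percentile of the 43 shared regions in the Dll1+ list (x axis) and the Dll1- list (y axis). Each point is a region, coloured by gene, the grey squares count all shared regions of the series, the solid line marks equal rank and the dashed lines mark 20 points. Abcc4 region 12 (38.6 and 81.8) and Abcc1 region 12 (42.4 and 81.7) lie farthest from the line.

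By level, 23 of the 43 relative log2 ratios were below 0 and 20 above 0. The whole counting interval lay below 0 in 7 regions (16.4% of all shared regions), lay above 0 in 5 (17.5%) and covered 0 in 31 (66.1%). A 2-fold difference was reached by 3 regions higher in Dll1- (Abcc4 region 12, Abcc1 region 12 and Abcc2 region 7), where 3.71% of all shared regions did so. It was reached by none higher in Dll1+, where 3.26% did so, with Abcg2 region 10 and Abcc3 region 5 closest at 1.97 times each. None of the shared promoter regions of the 8 genes had an interval clear of 0.

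**Figure D4:**
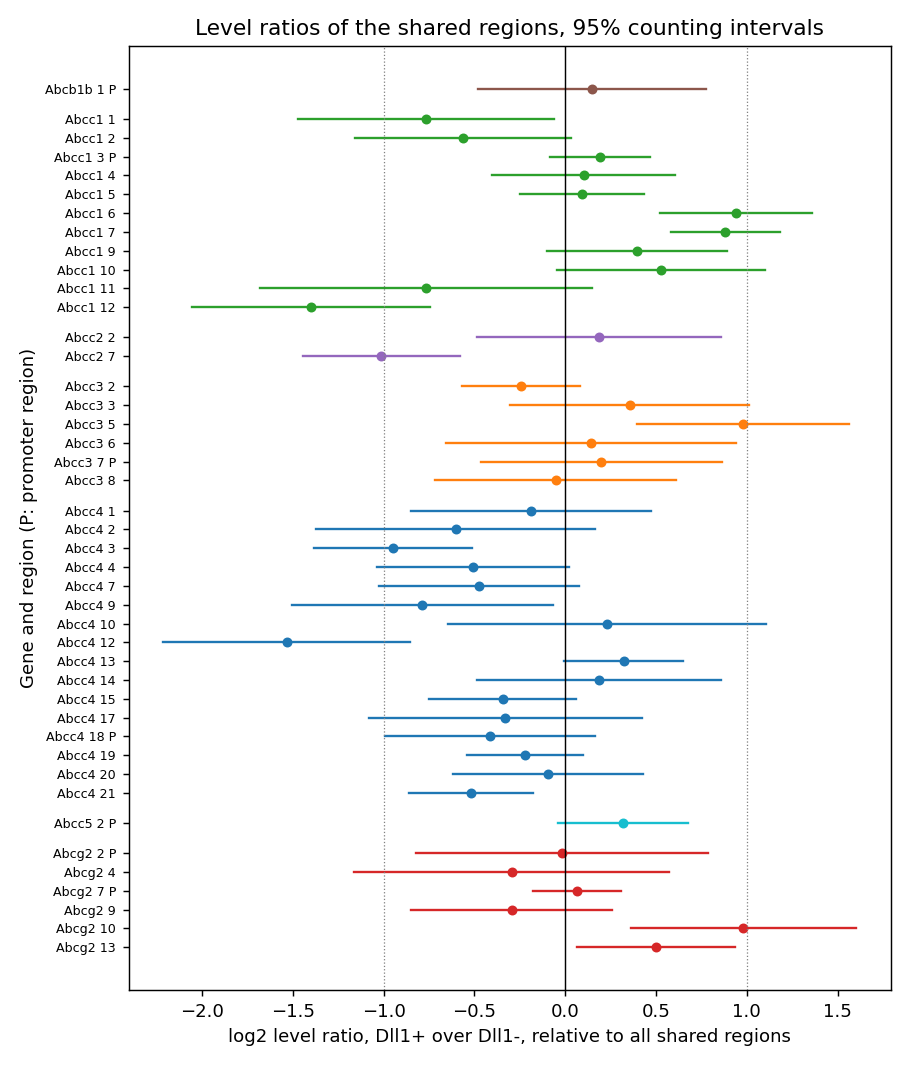
Relative log2 level ratio of the 43 shared regions, Dll1+ over Dll1-, by gene and region (y axis), with promoter regions marked P. Points are ratios, bars are 95% counting intervals, 0 is the median of all shared regions and dotted lines mark 2-fold. Of the 16 Abcc4 regions 13 lie left of 0.

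The 20 Dll1- only regions had a median of 36.0 reads and a median percentile of 36.6 in their list, against 36.0 reads and 32.6 for all 29318 such regions. With reads and background scaled to the Dll1+ list, all 20 would pass the weakest p-value in that list (99.7% of all Dll1- only regions) and 14 would pass its 10th percentile (66.6%). Those that would not were Abcb1a region 1, Abcc4 regions 5, 6 and 16, Abcc5 region 1 and Abcg2 region 3. After scaling, these 6 sites would rank, by −log10 p, at percentiles from 0.649 to 8.72 of the Dll1+ list. Abcg2 region 6 and Abcc2 region 6, scaled to 34.3 and 33.2 reads, would have stood at percentiles 53.0 and 51.6 by the same measure.

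**Figure D5:**
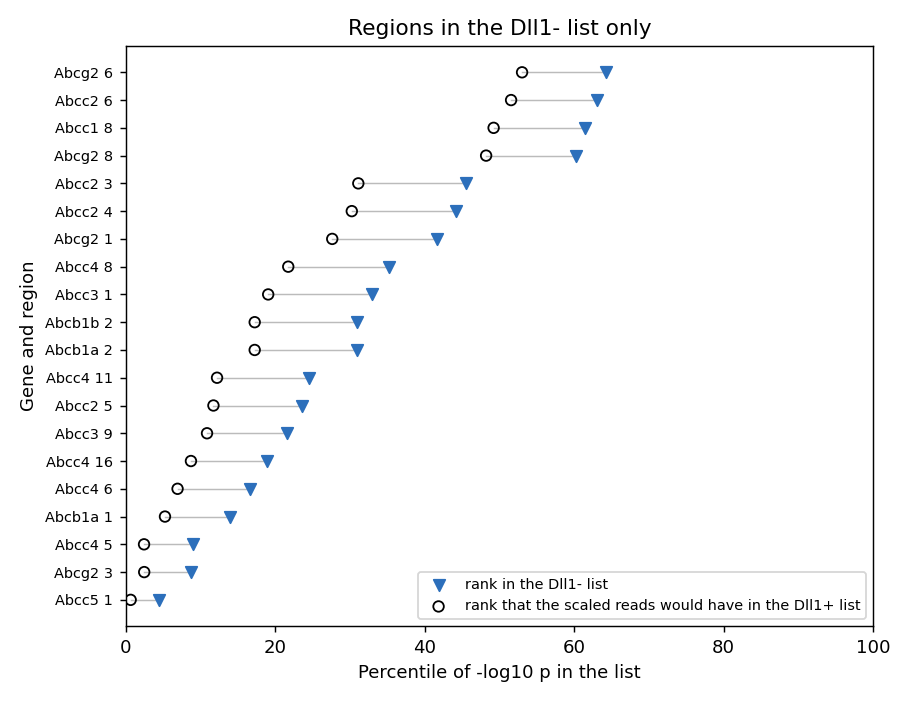
The 20 regions of the Dll1- list only, one per row. The x axis is the percentile of −log10 p. Filled triangles give it in the Dll1- list and open circles give the percentile that the reads, scaled to the background of the Dll1+ list, would have there. The circles run from 0.649 at Abcc5 region 1 to 53.0 at Abcg2 region 6.

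In position, 70.6% of the 68 regions had their midpoint in an intron and 11.8% were intergenic, against 48.4% and 33.2% over all regions. Of the 68, 56 lay in the body of their own gene. Transcription factor motifs were searched on both strands in the 100 bp to each side of a region's highest summit: AP-1 (TGACTCA or TGAGTCA), the NRF2 antioxidant response element (TGACNNNGC), RBPJ (TGTGGGAA or CGTGGGAA), TEAD (GGAATG), RUNX (TGTGGTT), FOX (TGTTTAC or TGTTTGC), the xenobiotic response element (TTGCGTG), the GC box (GGGCGG), the CCAAT box (CCAAT) and an NF-kB consensus. The AP-1 and NRF2 letters overlap in TGACTCAGC, which counts for both.

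AP-1 factors bind many stress-responsive enhancers, and an AP-1 site was found in 11 of the 68 regions, against 18% of all regions. Of the 20 Dll1- only regions 3 held one, where 30.4% of all Dll1- only regions did, and of the 5 Dll1+ only regions none did, where 4.4% did. The NRF2 element, through which oxidative stress induces several Abcc genes, was in 11 of the 68 (12% of all regions) and the NF-kB site in 5 (3.00%). RBPJ, the DNA-binding partner of the Notch intracellular domain, had a site in 2 (2.07%), Abcc4 regions 10 and 20. The xenobiotic response element, bound by the aryl hydrocarbon receptor, was found in none (0.615%). The counts are descriptions of letters, and no binding was measured.

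Of 9 RefSeq promoters of 6 of the 8 genes, a region of both lists lay over those of Abcb1b and Abcc5, over 1 of those of Abcc4 and over 1 of those of Abcg2. The open Abcc4 promoter, at chr14:118706220-118706469, has 72% G and C, 3 GC boxes and 1 NRF2 element. A GC box was found in 32.7% of 32851 RefSeq promoters, a CCAAT box in 33.8% and an NRF2 element in 10.2%.

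Genes around drug transport were set beside the 8 efflux genes. The other 44 ABC transporter genes had 234 regions, 67.9% in both lists, 6.41% in the Dll1+ list only and 25.6% in the Dll1- list only. Promoters were open only in the Dll1- list at 4 of them, Abca13, Abcc9, Abcd2 and Abcg4, and at none only in the Dll1+ list. For 20 solute carriers that take up or extrude drugs the shares were 61%, 14.3% and 24.7%, with Slco1a4 the one promoter of the Dll1+ list only and Slco2b1 the one of the Dll1- list only.

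Among 22 regulators of efflux genes 20 promoters were open in both lists, including Nfe2l2, which encodes NRF2, and Ahr. The promoter of Nr1i2, which encodes the pregnane X receptor, a xenobiotic sensor that induces P-glycoprotein, was open in the Dll1+ list only. Of the 295 regions of these regulators 67.5% were in both lists, 8.47% in the Dll1+ list only and 24.1% in the Dll1- list only, near the shares over all regions. Hif1a and Ahr each had 11 regions in the Dll1- list only, against 2 and 5 in the Dll1+ list only, and Rxra had 4 against 5. Among 28 doxorubicin targets and detoxification genes 26 promoters were open in both lists, including that of Top2a, the topoisomerase that doxorubicin poisons, and Gstm2 was open in the Dll1- list only. Their 193 regions were 72% in both lists, 5.7% in the Dll1+ list only and 22.3% in the Dll1- list only.

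Markers of cell types were checked in the same lists. All 9 luminal marker promoters were open in both lists, and of the luminal marker regions 11.2% were in the Dll1+ list only and 15.8% in the Dll1- list only. The shares in the Dll1+ list only and the Dll1- list only were 2.56% and 44.9% for fibroblast markers, 6.06% and 36.4% for immune markers, 6.67% and 32.5% for endothelial markers and 13.8% and 36.9% for basal markers, against 9.01% and 24.6% over all regions. Of 6 basal marker promoters 3 (Cnn1, Myh11 and Oxtr) were open in both lists and 3 (Krt5, Krt14 and Trp63) in neither. Of 10 fibroblast marker promoters 2 (Pdgfra and Acta2) were open in both lists, 3 (Col1a2, Pdgfrb and Fap) in the Dll1- list only and 5 in neither. Of 12 immune marker promoters 1 (Cd68) was open in both lists, 1 (Csf1r) in the Dll1- list only and 10 in neither, and of 12 endothelial marker promoters 3 were open in both lists and 9 in neither. The immune markers Cd4, Cd8a, Cd79a, Itgam and Lyz2 had no region assigned from either list, nor did the erythroid markers Hba-a1 and Gata1. Cells bearing CD31, an endothelial marker, and CD45, an immune marker, had been sorted out by the labels. The part of other cell types in the Dll1- only regions of the 8 genes was not tested.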

How the data were processed

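ATAC-seq of 3 Dll1+ and 4 Dll1- samples was represented by 2 lists, 1 per group, in which the authors pooled the samples with the ENCODE ATAC-seq pipeline. The aligner, peak caller and thresholds are not given in the sources used here. The submitters' notes name mm10 and GRCm38. The lists held 132872 Dll1+ and 148923 Dll1- rows. The deposited fold enrichment is a ratio of reads at a summit to the local background, the deposited −log10 p-value tests those reads against that background, and the deposited score, which follows the −log10 p-value up to a ceiling, was not used further. Counts of reads and the authors' per-sample tests were not analysed here.

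Reads and background were put back from the fold and p-value on the assumption, not stated in the sources, that the fold is (reads + 1)/(background + 1) and the p-value is Poisson, to a tolerance of 0.001. All reads, backgrounds, levels and ratios given rest on it. This failed for 4 Dll1+ and 66 Dll1- rows, of which 0 were at the 8 genes. The method was tested on simulated data. Without molecular identifiers, reads may be copies of one molecule, so intervals cover counting error only. Genes came from GENCODE M21 basic annotation, sequences from GRCm38.p6 and RefSeq. Python 3.11.15, numpy 2.4.6, pandas 2.3.3 and scipy 1.17.1 were used.

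The 8 genes and the other gene lists were chosen with earlier results of these data known. The regions named are the promoter regions, list-only regions, regions shifted by 20 points or more, and the strongest regions of each gene, and other regions named were chosen after their values were seen. From the other lists the genes named have a promoter in 1 list only or the largest excess of list-only regions, and others were chosen after their values were seen. Alternatives were a median fold filter, equal row numbers, a reciprocal overlap of 50%, an asymmetric threshold, scaled depth, a limit of 50 kb, 1 TSS per gene, gene bodies with 10 kb upstream, other ranks, a 10-point limit and promoters of 2500 bp each side.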

Additional observations from a re-analysis of the deposited data

How the results depend on the processing

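No paired analysis was possible because each list pools its samples, and for the same reason no sample could be left out. The counts of regions kept within 1.5 times under equal row numbers, a reciprocal overlap of 50%, the 50 kb limit, 1 TSS per gene and gene bodies. They also did under both depth scalings, but these can alter only the count of Dll1- only regions. Of all Dll1- only regions 99.7% passed the scaling to the weakest p-value, so little change was possible there. With rows at or above the median fold of their list, 24 regions were in both lists and 12 in the Dll1- list only, and 3 genes had more Dll1- only than Dll1+ only regions. Where only list-only regions had to hold such a row, 1 was left in the Dll1+ list only and 6 in the Dll1- list only, again with 3 such genes. Stricter filters leave fewer rows by construction. Ranked by −log10 p, 2 shared regions stood higher in Dll1+, and ranked among merged regions 0 did, as Abcg2 region 10 fell to 18.8 points, while 7 stood higher in Dll1- under either ranking. At 10 points, 6 were higher in Dll1+ and 15 in Dll1-. By scaled reads at 2-fold, added after seeing the data, 0 were higher in Dll1+ and 3 in Dll1-. With promoters taken at the 5' end of the gene record, also added later, 2 genes had a region in neither list. Of 230 values of single genes or regions under these alternatives, 193 stayed within 1.5 times (counts) or 5 points (percentile differences) and 37 moved by more. At Abcc3 the median fold filter turned the order to 1 Dll1+ only against 0 Dll1- only regions. The genes with more Dll1- only than Dll1+ only regions numbered 6 with equal row numbers and with the scaling to the 10th percentile p, which was also added later, and 7 with gene bodies. The share of all protein-coding genes in this order was not computed under any setting. The lists have no replicate error, and depth and cell group cannot be told apart.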
